A study of Mus musculus with 13 samples.

Results

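Very long genes, here the 185 protein-coding genes of the mouse whose annotated span reaches 500 kb or more, were examined for RNA-DNA hybrids by DRIP-seq in N2a cells, a mouse neuroblastoma line. The genes were chosen by length alone from 22380 protein-coding genes of the GENCODE vM1 annotation of build mm9, after 15 long genes with names of the ion channel, glutamate and GABA receptor and Celf kinds were set aside by a fixed name pattern. Peak lists came from 12 libraries. Cells had been transfected with scramble siRNA (siScramble) or with siRNA against DDX1 (siDDX1) or EXOSC3 (siEXOSC3), with 3 libraries each, and 1 further library of each group came from DNA digested with RNase H before the pulldown. All groups were the same line with no other treatment or allele named in the labels, and the siRNA lowers, but does not remove, its target. DDX1 is a putative RNA helicase of the DEAD-box family, and EXOSC3 is a cap subunit of the RNA exosome, the complex that trims and degrades RNA.

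In 12 of 12 lists the names of the peaks carry another siRNA than the title of the sample. Lists titled siScramble held peaks named siDDX1, lists titled siDDX1 held peaks named siEXOSC3, and lists titled siEXOSC3 held peaks named siScramble. Libraries are called by title below ("labelled siDDX1"), and every direction between siRNA groups rests on the titles being right. Comparisons of RNase H with untreated libraries do not depend on it. The untreated lists held 23882 to 42571 peaks and the RNase H lists 3811 to 8034. Read depth is unknown from these files. As markers of the line, a peak lay within 1 kb of the start of the neural crest factor Hand2 and of the neuronal tubulin Tubb3 in 9 of 9 untreated libraries, while none lay at the starts of the neuroblast factor Gata3 or the blood marker Ptprc. A peak at a start is not a measure of expression, so the list does not settle the cell type.

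An R-loop forms when RNA pairs with one DNA strand behind a transcribing polymerase and leaves the other strand single. The S9.6 antibody binds the hybrid, and RNase H degrades its RNA, so a peak that RNase H removes behaves as a hybrid does. Many very long genes encode proteins of neurons (adhesion molecules, axon guidance ligands, synaptic scaffolds), a single round of their transcription takes hours, and several overlap common fragile sites, where chromosomes break when replication is slowed. In DNA from a population of cells, fewer cells with a hybrid at a site and less hybrid per cell cannot be told apart.

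Sequences of start regions and of other regions called in every untreated library, and of RNase H regions, are shown first, as 150 bases of build mm9 written 5′ to 3′ on the strand of the member's own transcript, and for the regions inside Gm20388 on the strand of Gm20388. Capitals mark runs of 3 or more G. The first set holds the bases just upstream of the annotated start of Pard3 and Alk, 2 of the 3 members whose start region was called in 9 of 9 untreated libraries with the highest median fold enrichment. Pard3 encodes a polarity scaffold and Alk a receptor tyrosine kinase known as a neuroblastoma driver.
Pard3, chr8:129587643-129587792, plus strand: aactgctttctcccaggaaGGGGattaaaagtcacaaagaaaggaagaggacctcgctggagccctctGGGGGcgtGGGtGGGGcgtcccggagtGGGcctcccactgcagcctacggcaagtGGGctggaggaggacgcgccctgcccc
Alk, chr17:72953050-72953199, minus strand: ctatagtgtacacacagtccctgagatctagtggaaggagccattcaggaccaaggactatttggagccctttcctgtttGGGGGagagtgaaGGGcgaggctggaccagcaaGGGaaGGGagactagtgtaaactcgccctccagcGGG
The 3 strongest other regions called in 9 of 9 untreated libraries all lay inside 1 gene model, Gm20388, which spans 72 shorter protein-coding genes. The first overlaps the amino acid transporter gene Slc7a5, the second the ribosomal protein gene Rpl13, and the last no other annotated gene.
Gm20388, chr8:124410030-124410179, plus strand: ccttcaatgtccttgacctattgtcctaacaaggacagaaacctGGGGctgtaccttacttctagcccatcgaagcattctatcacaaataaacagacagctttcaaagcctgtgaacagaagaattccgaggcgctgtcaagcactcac
Gm20388, chr8:125627543-125627692, plus strand: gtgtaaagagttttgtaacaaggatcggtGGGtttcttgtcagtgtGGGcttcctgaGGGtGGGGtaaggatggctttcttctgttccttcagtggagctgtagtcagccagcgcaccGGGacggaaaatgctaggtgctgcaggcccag
Gm20388, chr8:124356252-124356401, plus strand: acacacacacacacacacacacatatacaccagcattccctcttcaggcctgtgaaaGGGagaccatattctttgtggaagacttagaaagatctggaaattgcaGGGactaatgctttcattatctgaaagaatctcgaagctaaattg
Outside Gm20388 and away from exons and other genes, the strongest such regions of 3 different members are added. They were chosen after their values were seen. Slit3 encodes a secreted axon guidance ligand, Kalrn a guanine nucleotide exchange factor, and Npas3 a transcription factor.
Slit3, chr11:35477406-35477555, plus strand: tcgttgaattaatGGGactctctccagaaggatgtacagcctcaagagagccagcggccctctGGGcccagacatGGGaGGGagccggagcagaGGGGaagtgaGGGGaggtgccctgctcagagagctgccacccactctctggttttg
Kalrn, chr16:34472350-34472499, minus strand: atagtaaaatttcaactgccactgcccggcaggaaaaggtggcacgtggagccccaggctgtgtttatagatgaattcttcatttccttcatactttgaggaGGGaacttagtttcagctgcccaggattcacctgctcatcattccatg
Npas3, chr12:54377508-54377657, plus strand: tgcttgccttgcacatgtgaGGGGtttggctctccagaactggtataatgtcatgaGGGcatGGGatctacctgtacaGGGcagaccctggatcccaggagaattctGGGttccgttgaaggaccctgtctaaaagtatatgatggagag
For contrast, a pair of regions called in 3 of 3 RNase H libraries and in 0 of 9 untreated libraries is added, also after the values were seen. Cntnap2 encodes a neurexin-like adhesion protein and Dab1 the adaptor of reelin signalling.
Cntnap2, chr6:46857190-46857339, plus strand: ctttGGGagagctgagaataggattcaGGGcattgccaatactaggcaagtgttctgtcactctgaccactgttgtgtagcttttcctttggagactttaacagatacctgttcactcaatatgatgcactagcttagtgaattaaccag
Dab1, chr4:103533557-103533706, plus strand: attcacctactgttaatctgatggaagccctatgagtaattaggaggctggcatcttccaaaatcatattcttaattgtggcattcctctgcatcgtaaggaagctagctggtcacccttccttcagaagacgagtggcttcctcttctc

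The printed start windows of Pard3 and Alk held 6 and 5 runs of GGG or longer, and the 3 windows of Gm20388 held 1, 5 and 2. The Slit3, Kalrn and Npas3 windows held 6, 1 and 5 runs and the Cntnap2 and Dab1 windows 2 and 0. Over all 22364 windows of the same length upstream of a protein-coding gene's start, 86.7% held at least 1 such run on the gene's strand (87.0% on the other strand), with a mean of 3.06 runs. The 185 windows of the members held a mean of 3.92 runs, and 94.6% of them held at least 1 (89.7% on the other strand). Their mean GC content was 61.1%, against 56.4% over all 22364 windows. At the summits of the members' regions, the mean number of runs was 2.28 for 144 regions called in 9 of 9 untreated libraries, 1.90 for 895 regions called in 1 untreated library and 1.54 for 80 regions called in 3 of 3 RNase H libraries. The corresponding GC contents were 51.8%, 46.8% and 44.2%. Gm20388 alone held 112 of the 144 regions, whereas 636 of the 895 and 67 of the 80 lay outside it. These sets thus differ in their share of 1 locus, and runs and GC without it were not computed. These are descriptions of the letters in a window, and windows of one gene are not independent.

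Very long genes held fewer peaks per length than any shorter class of genes. In the 9 untreated libraries, the lowest value over the 185 members was 0.303 peaks per 100 kb, the mean 0.435 ± 0.114 (SD) and the highest 0.620. Genes of 100 to 500 kb held 1.27 ± 0.407, genes of 10 to 100 kb 4.95 ± 1.11, genes under 10 kb 9.17 ± 1.28 and the whole genome 1.25 ± 0.283. The highest library of the members thus stayed below the lowest of the 100 to 500 kb class, at 0.780. The RNase H libraries differed far less between the classes. After RNase H the members held 0.239 peaks per 100 kb in the siScramble library, 0.126 in the siDDX1 library and 0.121 in the siEXOSC3 library, and genes under 10 kb held a mean of 0.277. The ratio of the untreated mean to the RNase H mean was 2.69 in the members, 6.71 in genes of 100 to 500 kb, 18.9 in genes of 10 to 100 kb and 33.1 in genes under 10 kb. Put as shares, the members took 2.12% ± 0.165 of a library's peaks in untreated DNA and 5.07% ± 0.224 after RNase H, and they make up 6.11% of the genome's length.

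**Figure D1:**
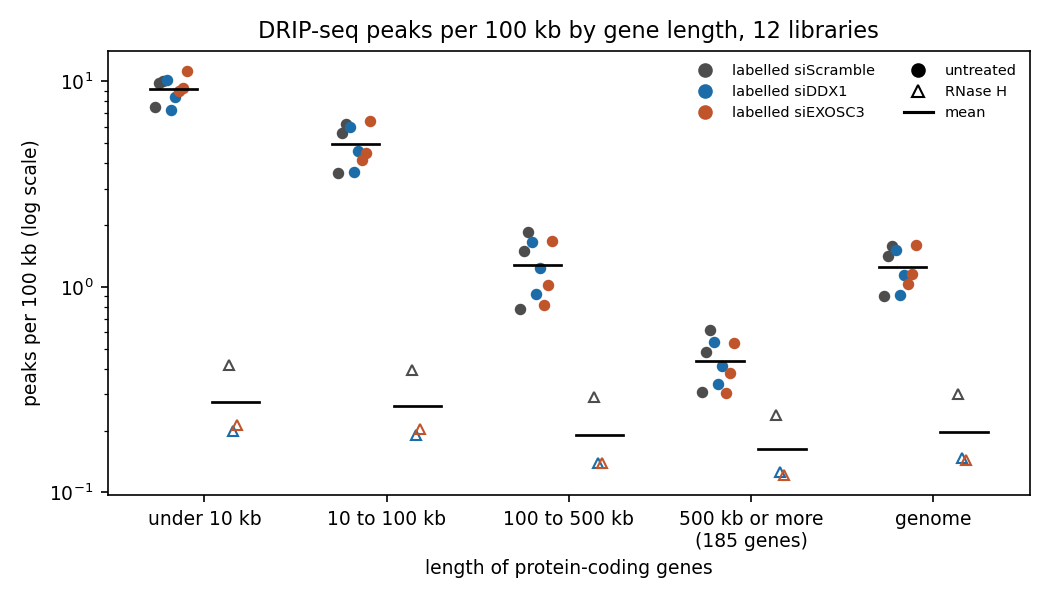
Peaks per 100 kb (log axis) in protein-coding genes by length and in the genome, 1 point per library, filled circles for 9 untreated and open triangles for 3 RNase H libraries, with bars at the means. The untreated points of the 500 kb class (mean 0.435) lie below those of every shorter class, while the RNase H points of all classes lie between 0.121 and 0.418.

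A single gene model carried most of the members' peaks. Gm20388, 4435 kb long at chr8:122434741-126869622, held 308, 401 and 465 peaks in the libraries labelled siScramble, 470, 348 and 398 in those labelled siDDX1 and 349, 387 and 525 in those labelled siEXOSC3. That is 57.4% of all untreated peaks in the members, summed gene by gene, and shorter protein-coding genes cover 43.3% of its span. The 5 members with most peaks held 73.1% and the first 10 held 84.2%. Without Gm20388 the members held 0.191 ± 0.0810 peaks per 100 kb in untreated libraries and 0.148 ± 0.0644 after RNase H, a ratio of 1.29. With the Fgfr2 and Arfip1 models, which span 31 and 5 other protein-coding genes, left out as well, the ratio was 1.17. Both exclusions were chosen after the values were seen.

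Most very long genes had no peak in untreated DNA. No untreated library had a peak in 99 of the 185 members, while 25 had one in 9 of 9 libraries and 61 in 1 to 8. The lack of a peak was not particular to them. It held for 11748 of all 22367 protein-coding genes on the assembled chromosomes and for 1007 of 2201 genes of 100 to 500 kb. A peak in 9 of 9 libraries was found in 4647 of the 22367. RNase H libraries had a peak in 73 of the 99, and 26 had none in any of the 12 libraries. The mean density was higher after RNase H in 123 members and higher in untreated DNA in 32, against 1385 and 10114 of 22367 protein-coding genes on the assembled chromosomes. The same counts were 9 and 2 for the 15 long genes set aside by name. For genes of 100 to 500 kb they were 512 and 1009. The excess after RNase H was thus not particular to the members. Of the 50 members of 1000 kb or more, 19 had no untreated peak and 10 had one in 9 of 9 libraries. Ptprd, a receptor tyrosine phosphatase gene of 2271 kb, had 0 peaks in 9 untreated libraries and 1, 1 and 0 after RNase H. Macrod2 (1998 kb), a mono-ADP-ribosylhydrolase gene, had 0 peaks untreated and 1, 1 and 0 after RNase H. The synaptic scaffold gene Dlg2 (1945 kb) had 0 untreated and 2, 0 and 1 after RNase H, and Fhit (1612 kb), the gene of a well-known fragile site, had 0 untreated and 4, 3 and 1 after RNase H. Dmd, the dystrophin gene of 2257 kb, had 1 peak in 1 untreated library and 1 peak in 1 RNase H library. A gene without a called peak may still hold signal under the authors' threshold.

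**Figure D2:**
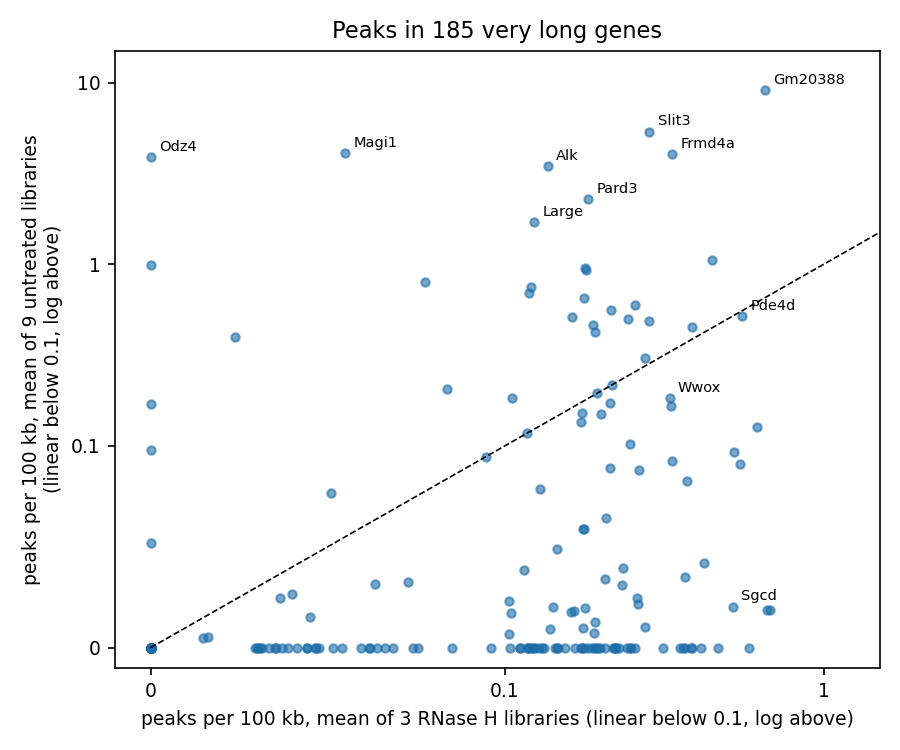
Peaks per 100 kb of each of the 185 members, mean of 9 untreated libraries (vertical) against mean of 3 RNase H libraries (horizontal), both axes linear below 0.1 and logarithmic above, with the dashed line at equality. Most points lie on or near the bottom edge (99 members at 0 untreated), and Gm20388, Slit3, Frmd4a, Magi1, Odz4 and Alk stand far above the line.

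The members with the most peaks per 100 kb after Gm20388 were Slit3 (5.37), Magi1 (4.09), Frmd4a (4.06), Odz4 (3.87), Alk (3.47), Pard3 (2.29) and Large (1.71). Large encodes a glycosyltransferase that modifies dystroglycan. Magi1 encodes a junctional scaffold, Frmd4a a FERM-domain protein of epithelial polarity, and Odz4, now called Tenm4, a teneurin adhesion receptor. Odz4, at chr7:103319754-104059603, held 20, 56 and 76 peaks in the libraries labelled siScramble, 25, 14 and 22 in those labelled siDDX1 and 9, 13 and 23 in those labelled siEXOSC3, and 0 in each RNase H library. Alk, at chr17:72218782-72953049, held 12, 38 and 53 peaks, then 41, 22 and 30, and then 2, 9 and 22 in the same order, and 1 in each RNase H library. Slit3, at chr11:34934726-35522009, held 22, 32 and 53, then 24, 20 and 30, then 21, 29 and 53, and 1, 2 and 2 after RNase H. In Gm20388, Slit3, Magi1, Frmd4a, Odz4, Alk and Large every untreated library lay above every RNase H library, and in Pard3 the groups overlapped. Replicate 1 of the group labelled siScramble, whose list was the shortest of the 9, was the lowest of its group in each of these genes.

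Peaks of the members crowded at the far end of the genes and, with Gm20388 left out, at the start as well. With Gm20388 left out, the first decile of the gene's length in the direction of transcription held 0.277 ± 0.111 untreated peaks per 100 kb, the fourth decile 0.0732 ± 0.0514 and the last decile 0.548 ± 0.210 (SD, n = 9). The last decile thus held 29.2% ± 3.36 of the peaks and the first 14.7% ± 2.43. In RNase H libraries no decile lay below 0.118 or above 0.186, and the last held 12.3% ± 1.42. With Gm20388 included, the untreated shares were 9.54% ± 1.51 in the first decile and 19.3% ± 1.35 in the last. The first then held no larger share than the fifth, at 9.77% ± 0.950. Genes of 100 to 500 kb had 16.3% of their untreated peaks in the first decile and 21.4% in the last.

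**Figure D3:**
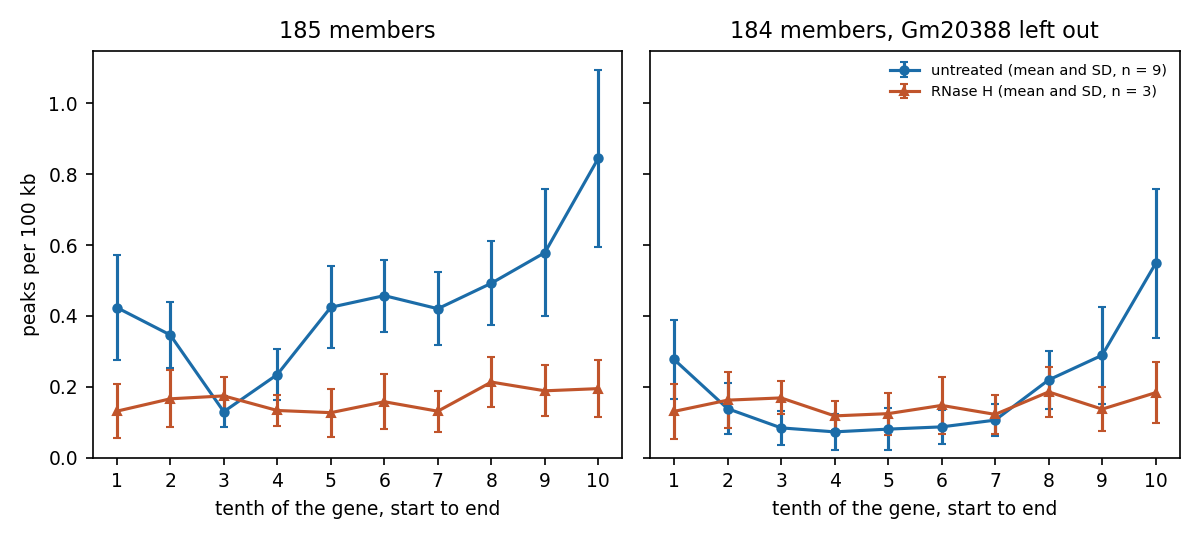
Peaks per 100 kb in each decile of the gene from annotated start to end, mean and SD over 9 untreated (circles) and 3 RNase H libraries (triangles), for 185 members on the left and without Gm20388 on the right. On the right the untreated line runs from 0.277 in the first decile through 0.0732 in the fourth to 0.548 in the last, while the RNase H line stays between 0.118 and 0.186.

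By distance, the first kb of the members held 3.72 ± 1.54 untreated peaks per 100 kb, the next 9 kb 0.861 ± 0.270, and the stretch from 200 to 500 kb 0.171 ± 0.0767. Beyond 500 kb the density was 0.747 ± 0.158, and 0.215 ± 0.0851 without Gm20388. After RNase H the values of these 4 stretches were 0.541 ± 0.541, 0.200 ± 0.0917, 0.159 ± 0.0692 and 0.169 ± 0.0592. The first kb of genes of 100 to 500 kb held 11.6 ± 3.42 untreated peaks per 100 kb. A start peak, any peak within 1 kb of the annotated start, was present in 9 of 9 untreated libraries in 5 members, which were Alk, Enox1, Large, Odz4 and Pard3. A further 21 members had one in 1 to 8 libraries. Together 14.1% of the members had a start peak in at least 1 untreated library, against 32.9% of genes of 100 to 500 kb and 39.6% of genes of 10 to 100 kb. The 5 members with a start peak in every untreated library also held a median of 12.6 peaks over the whole gene, and the 159 members without one a median of 0. Start peaks whose middle lies inside the gene are also counted among its peaks, so these counts share data in part.

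The crowding at the far end came from particular genes. Of 41 members with a mean of at least 1 untreated peak, 15 had the majority of their untreated peaks in the last of 3 equal parts of the gene, 12 in the first, 5 in the middle and 9 in none. All 75 untreated peaks of Auts2, a developmental regulator gene of 1106 kb, lay in the last part. So did 280 of 284 untreated peaks of Slit3, 203 of 218 of Frmd4a, 65 of 70 of the cAMP phosphodiesterase gene Pde4d and 54 of 55 of the teneurin gene Odz2 (now Tenm2). Odz4, Magi1, Alk and Pard3 had peaks along their whole length, with 32.9%, 32.6%, 27.9% and 34.5% in the first part. At the other extreme, all 36 peaks of Npas3 and 52 of 57 of Kalrn lay in the first part. The fragile site gene Wwox, an oxidoreductase, had all 15 untreated peaks in the first part and all 9 RNase H peaks in the last.

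In some members the first region called in 9 of 9 untreated libraries lay at an annotated start of a shorter transcript of the same gene. The first region of Slit3 that was called in 9 of 9 untreated libraries lay 424 kb inside the gene and its middle was 0.675 kb from a transcript start of Slit3. The first 2 of the 3 equal parts of Slit3 held 4 untreated peaks. In Auts2 the first such region lay 1005 kb inside the gene and 0.014 kb from a transcript start. In Schip1, which encodes a schwannomin-interacting protein, it lay 431 kb inside and 1.39 kb from one. In Pde4d it lay 1487 kb inside and 1.36 kb from one, but other untreated peaks of Pde4d lay before it. Of 21 members with a region called in every untreated library, 8 had the first of these within 2 kb of an own transcript start, 4 at the gene's start and 4 further inside. Others lay far from one, as in Odz2 (326 kb) and Magi1 (52.4 kb). Genes with many annotated transcripts have more starts to lie near, and this was not tested.

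**Figure D4:**
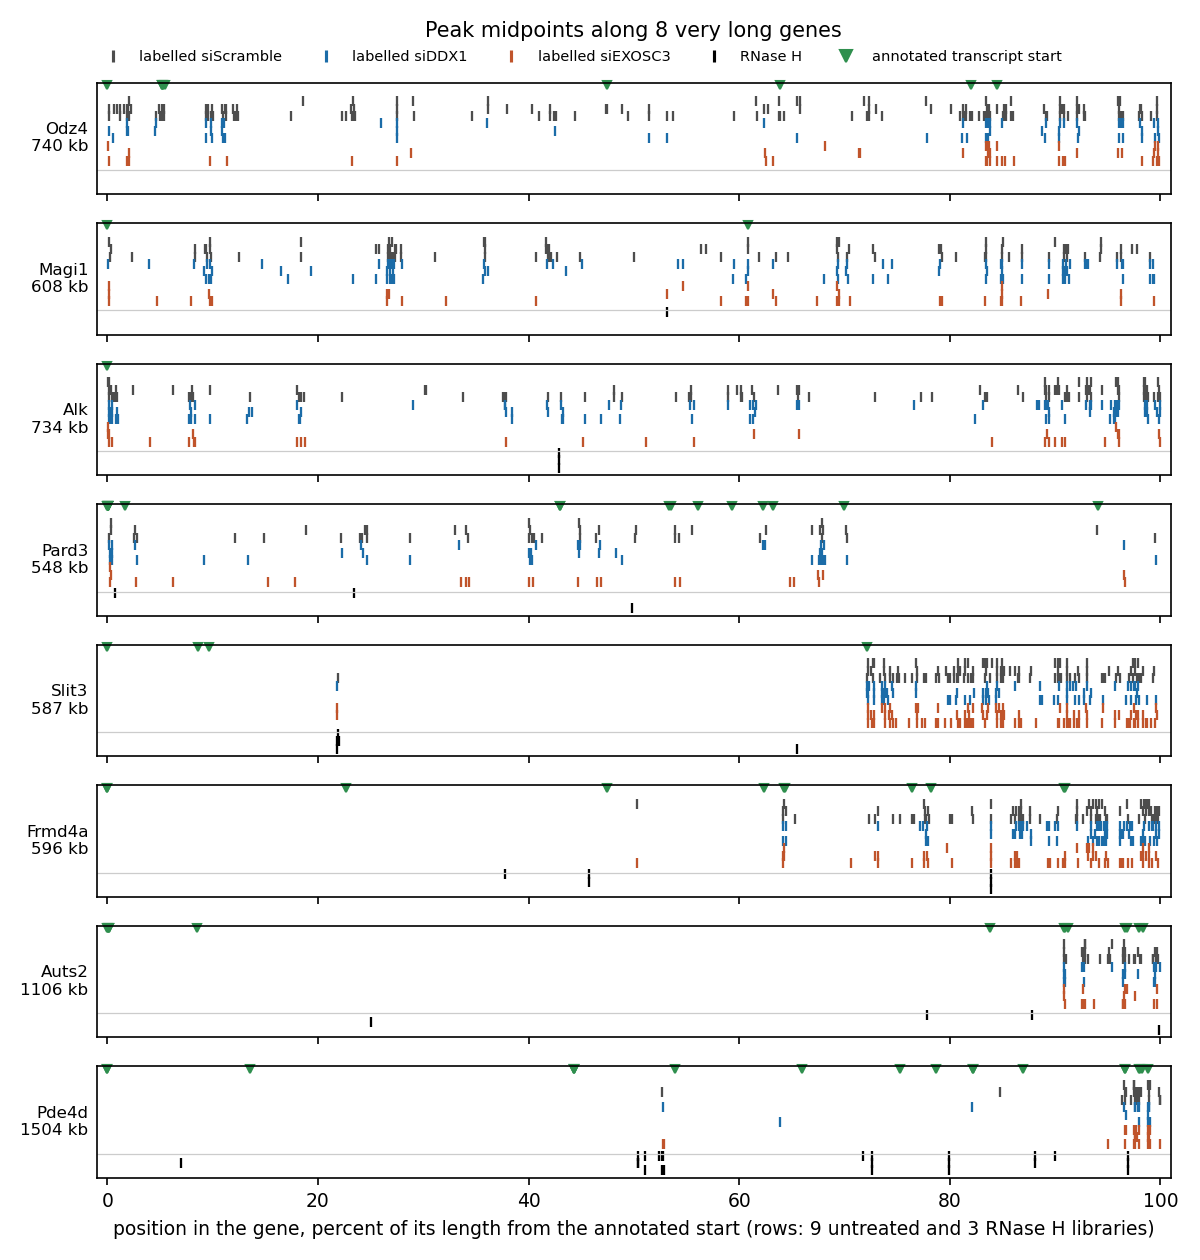
Midpoints of peaks along 8 members, placed by percent of the gene's length from its annotated start, with 9 rows of untreated libraries coloured by label, 3 rows of RNase H libraries below the grey line, and triangles at the annotated transcript starts of the gene. Odz4, Magi1, Alk and Pard3 carry peaks from end to end, whereas in Slit3, Auts2 and Pde4d 280 of 284, 75 of 75 and 65 of 70 untreated peaks lie in the last of 3 equal parts.

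Some of the most repeatable regions lay over other genes inside the members. Astn2, which encodes a neuronal migration protein, had 1 region called in 9 of 9 untreated libraries, and it lay over Trim32, a gene inside it. The single such region of the kinase gene Prkg1 lay over Cstf2t, a polyadenylation factor gene, and those of the Fgfr2 model lay over Tacc2 and Bub3. When all peaks with a midpoint in another annotated gene were left out, the members held 0.213 ± 0.0760 untreated and 0.151 ± 0.0643 RNase H peaks per 100 kb.

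Few regions of the very long genes were called in every library. Merging the 9 untreated lists gave 1753 regions with their middle in a member. Of these, 144 (8.21%) were called in 9 of 9 libraries and 895 (51.1%) in 1, against 10.7% and 45.3% of 69495 regions of the whole genome. Without Gm20388, 32 of 1073 (2.98%) were called in 9 of 9 and 59.3% in 1. Slit3 held 7 of these 32. Counting a library only where its peaks covered at least 0.5 of the region left 47 of the 144. The RNase H lists gave 524 regions in the members, of which 80 (15.3%) were called in 3 of 3 libraries, against 13.1% of 10674 over the genome. No untreated library had a peak in 82.6% of these 524 regions, nor in 78.6% of the genome's RNase H regions.

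Untreated and RNase H peaks of the members differed in composition, as did those of the whole genome. Without Gm20388, the mean GC content of a peak was 46.8% ± 1.08 in untreated and 41.8% ± 0.277 in RNase H libraries, and 12.9% ± 5.29 and 2.197% ± 0.498 lay within 1 kb of an annotated transcript start of any gene. The members themselves had a GC content of 40.3% and the genome 41.8%. An edge of the peak fell exactly on a cut of one of the 5 enzymes used to fragment the DNA in 35.0% ± 5.96 of untreated and 54.8% ± 3.53 of RNase H peaks. Over all peaks of the genome these shares were 35.8% ± 2.67 and 43.6% ± 4.03. The searched sites were those of BsrGI (TGTACA), EcoRI (GAATTC), HindIII (AAGCTT), SspI (AATATT) and XbaI (TCTAGA), which read the same on both strands. Cut sites were slightly denser in the members, at 20.3 per 10 kb, than in the genome, at 18.6. The part of fragment ends and GC content in the RNase H peaks was not tested.

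After RNase H the members with the most untreated peaks held far fewer. Picking genes by their untreated peaks sets part of such a fall in advance. The test was limma on log2 of peaks per gene plus 0.5, averaged over the siRNA groups, with Benjamini-Hochberg adjustment over 6064 genes that had a mean of at least 1 peak in the 12 libraries. It called 5591 genes lower (92.2%) and 23 higher (0.379%). Among the 185 members, 49 passed the filter, 21 were lower and 11 higher. The median log2 difference was −0.68 over those 49 and −2.52 over all genes tested. Odz4 fell by 5.56 on the log2 scale (SE 0.434, adjusted p = 3.03e-07), Magi1 by 4.88 (SE 0.487, adjusted p = 2.11e-06) and Slit3 by 3.84 (SE 0.341, adjusted p = 8.2e-07). Gm20388 fell by 3.80, Frmd4a fell by 3.28, Fgfr2 fell by 3.08, Large fell by 3.03 and Arfip1 fell by 2.97, all with adjusted p of 0.00013 or less. With values scaled to the library's peak number, the test called 443 genes higher and 742 lower, and the median log2 difference was 0.19 over all genes and 2.03 over the 49 members. In that fit Gm20388, Odz4, Slit3 and Magi1 stayed lower, Frmd4a, Fgfr2, Large and Arfip1 were no longer called, and 32 members were higher and 4 lower. Without scaling and with any gene that had a peak kept, 6122 of 11546 genes were lower and 498 higher. Of the 159 members tested there, 19 were lower and 75 higher. Of the members, 73 had peaks only in RNase H libraries and entered this fit through those alone. The 75 are thus set in part by the filter, as are the 32 of the scaled fit. Neither count is support for a difference.

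Of the 11 members called higher after RNase H, all but Cntnap2 and Lingo2 reached the filter only with the peaks of their RNase H libraries. Their count is thus no support for a difference. Sgcd, the delta-sarcoglycan gene of the dystrophin complex, held 6, 7 and 4 peaks after RNase H, in the order siScramble, siDDX1 and siEXOSC3, and 1 peak in each of 2 untreated libraries. Pard3b, a paralogue of Pard3, held 6, 5 and 3 after RNase H and 0 in 9 untreated libraries. Mast4, a kinase gene, held 6, 4 and 2 against 1 peak in 1 untreated library, and Clstn2, a calsyntenin gene, 6, 3 and 3 against 1 peak in 1. The synaptic scaffold gene Dlgap1 held 8, 3 and 3 against 0 to 2, and Cntnap2 7, 4 and 3 against 0 to 5. Lingo2 and Lrrtm4, both leucine-rich repeat adhesion genes, were called higher by 0.98 and 2.49 on the log2 scale. The Pde4d gene held the most RNase H peaks after Gm20388, 11, 7 and 7, with 2 to 13 in untreated libraries. A filter at a mean of 3 peaks left 23 members in the same limma test, of which 20 were lower and 0 higher. All 11 members called higher have too few peaks to pass that filter, so it cannot bear on them. Leaving out the RNase H library labelled siScramble, siDDX1 or siEXOSC3 left 4, 5 or 6 members called higher.

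Between the siRNA groups, 1 very long gene, Odz4, passed the test. Densities of the members were 0.471 ± 0.156 peaks per 100 kb in the libraries labelled siScramble, 0.429 ± 0.104 in those labelled siDDX1 and 0.406 ± 0.117 in those labelled siEXOSC3 (SD, n = 3 each), which differed by less than the SD within a group. The 3 comparisons share libraries and are not independent. Peaks per gene plus 0.5 were scaled to the library's peak number and tested on the log2 scale with limma over 6974 genes, of which 41 were members. For siEXOSC3 against siScramble, 3 genes were higher (0.043%) and 5 lower (0.0717%), and Odz4 was the only member called. Its scaled number was 45.7 ± 16.3 peaks in libraries labelled siScramble, 21.3 ± 2.48 in those labelled siDDX1 and 14.3 ± 3.52 in those labelled siEXOSC3 (SD, n = 3 each). It fell by 1.60 on the log2 scale (SE 0.266) with an adjusted p of 0.0211 in limma's fit. The scaled values of these 2 groups did not overlap, but their unscaled peak numbers did. Over 18 alternative settings the difference was −1.37 or lower, but the adjusted p lay between 0.00151 and 0.813 and 8 settings lost the call. These 8 include the fit without scaling, which called 0 members. They also include the exact permutation test, which could call no gene since its smallest p here is 0.1. Among these, leaving out siScramble replicate 2 or 3 gave adjusted p of 0.138 and 0.119, and leaving out siEXOSC3 replicate 1 or 2 gave 0.0938 and 0.0888. By the peak names this comparison would be siScramble against siDDX1.

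For siDDX1 against siScramble, limma called 0 of 6974 genes (0%), with 422 genes and 8 members at an unadjusted p under 0.05. The members with the smallest p were Odz4, at −1.02 on the log2 scale (adjusted p = 0.416), and Schip1, at −1.17 (adjusted p = 0.478). For siEXOSC3 against siDDX1 limma likewise called 0 of 6974 genes (0%), with 679 genes and 9 members at an unadjusted p under 0.05. Here Alk stood at −2.003 (SE 0.443) and Magi1 at −1.46 (SE 0.313), both with an adjusted p of 0.105. Scaled peak numbers of Alk were 32.3 ± 1.90 in the libraries labelled siDDX1 and 9.79 ± 7.36 in those labelled siEXOSC3, and those of Magi1 were 31.2 ± 4.54 and 12.1 ± 6.80. An exact permutation test of each gene called 0 genes in all 3 comparisons, since with 3 libraries against 3 its smallest p is 0.1. Slit3 stayed within 0.34 of 0 on the log2 scale in all 3 comparisons, and Gm20388 within 0.19, with no call. The median log2 differences of the 41 members were −0.01 for siDDX1 against siScramble, −0.34 for siEXOSC3 against siScramble and −0.25 for siEXOSC3 against siDDX1, beside 0.06, 0.03 and −0.06 over all genes tested.

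**Figure D5:**
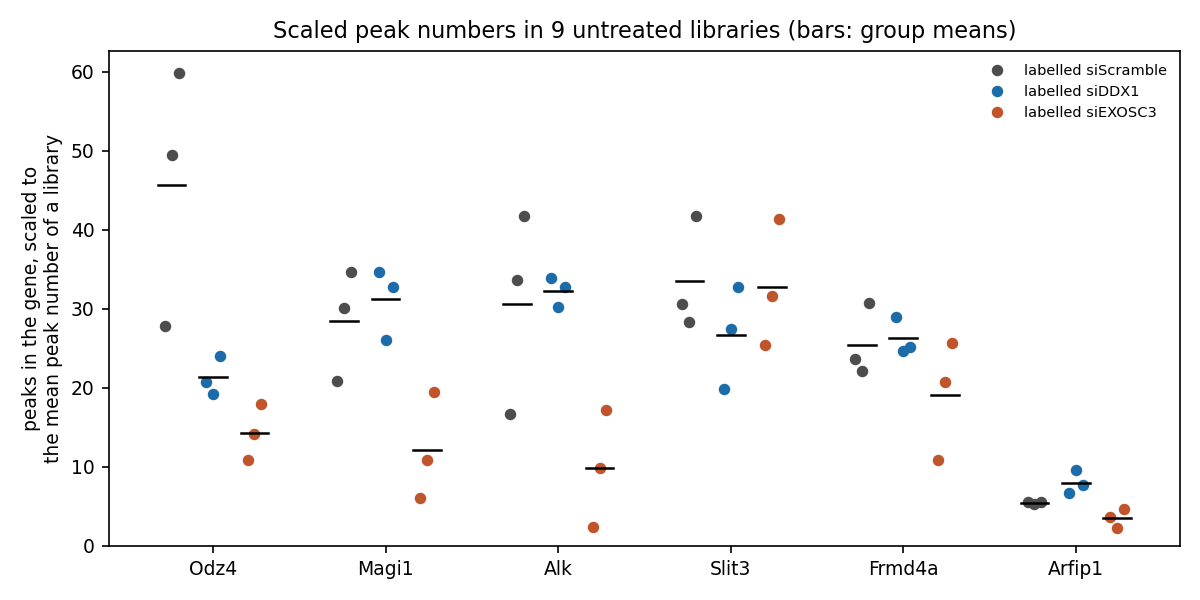
Peaks in 6 members, scaled to the mean peak number of a library, 1 point for each of 9 untreated libraries, grouped by label, with bars at the group means. In Odz4 the 3 libraries labelled siScramble (27.8 to 59.8) lie above those labelled siEXOSC3 (10.9 to 17.9), and in Alk and Magi1 those labelled siDDX1 do, while the groups overlap in Slit3 and Frmd4a.

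Groups that did not overlap were counted among the 41 members and set beside the share over all 6974 genes. The libraries labelled siScramble all lay above those labelled siEXOSC3 in 6 of 41 members (Arfip1, Large, Magi1, Odz2, Odz4 and Schip1), which is 14.6%, against 6.64% of all genes, and the reverse held in 1 (2.44%), Arhgap26, against 6.28%. Libraries labelled siDDX1 lay above those labelled siEXOSC3 in 6 (Alk, Arfip1, Large, Magi1, Odz2 and Odz4), or 14.6%, against 7.69%, and below them in 1 (2.44%), Schip1, against 5.33%. Those labelled siScramble lay above siDDX1 in 5 (Dcc, Lrba, Odz4, Schip1 and Vps13b), or 12.2%, against 4.76%, and below in 2 (Arfip1 and Arhgap26), or 4.88%, against 3.83%. These shares rest on 1 to 6 genes, and no test was made of them. The names shared between these counts follow in part from the shared libraries. With no scaling there were 3 such cases, against 21.

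The known roles of the members divided them into 7 lists, with 49 members in none. The RNase H counts of each list stand beside 92.2% of all 6064 tested genes lower, 0.379% higher and a median log2 difference of −2.52. The counts without an untreated peak stand beside 99 of all 185 members and 11748 of 22367 protein-coding genes. All members called higher but Cntnap2 and Lingo2 entered the test only through their RNase H peaks, and many called lower entered through their untreated peaks. The counts and medians of the lists are thus set in part by the filter and are no trait of a list. Cell adhesion and axon guidance had 53 members, of which 28 had no untreated peak and 6 had one in 9 of 9 libraries. Slit3 and Odz4 led it, with means of 31.6 ± 12.9 and 28.7 ± 22.4 untreated peaks. After RNase H, 4 of the 11 tested members of this list were lower and 4 higher, with a median log2 difference of 0.35. The synaptic scaffold and vesicle release list had 24 members, 14 without an untreated peak, led by Magi1 (24.9 ± 13.8) and Nbea (5.56 ± 3.13), a vesicle trafficking gene, and 3 of 6 tested were lower and 1 higher after RNase H (median −0.97). Among 23 members for kinases, phosphodiesterases and growth factor signalling, 13 had no untreated peak, Alk (25.4 ± 16.6) and Fgfr2 (24.1 ± 11.5) led, and 5 of 9 were lower and 2 higher (median −1.01).

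Of 25 members in the fragile site list, 7 had no untreated peak and 4 had one in 9 of 9 libraries. Over all 185 members these counts were 99 and 25. Large (9.22 ± 4.94) and Auts2 (8.33 ± 5.39) led, and 4 of 7 tested were lower and 1 higher after RNase H (median −1.19), where over all 6064 genes 92.2% were lower and 0.379% higher with a median of −2.52. Auts2 also led the 14 transcription factors and RNA-binding proteins, ahead of Npas3 (4 ± 1), with 2 of 6 lower and a median of 0.04. In the dystrophin complex and cytoskeleton list, 5 of 12 had no untreated peak, Frmd4a (24.2 ± 9.77) and the nuclear envelope spectrin gene Syne1 (2.44 ± 1.74) led, and 1 of 3 was lower and 1 higher (median −0.68). In the list of heparan sulphate proteoglycans and their enzymes, which also takes in enzymes of other glycans, 4 of 7 members had no untreated peak. Large and St6galnac3 (3.11 ± 2.76), a sialyltransferase gene, held the most peaks and were its 2 tested members, of which 1 was lower (median −1.84). Both act on other glycans, so these values are not of heparan sulphate genes. Between siRNA groups, the single call in any list was Odz4 for siEXOSC3 against siScramble.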

How the data were processed

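N2a DNA was cut with BsrGI, EcoRI, HindIII, SspI and XbaI and pulled down with S9.6, with RNase H digestion as control. The authors aligned reads to mm9 with Bowtie2 2.4.4, called peaks for each library with MACS2 2.2.6 against an input (1 sample, not analysed here), and tested read counts with DESeq2; those counts were not used here. The deposited lists give position, a display score, fold enrichment as a linear ratio, and −log10 of the p-value and q-value. The deposited score only sets the display and entered no result.

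A peak belonged to a gene when its midpoint lay between the annotated start and end. Densities are peaks over the union of the genes' spans, as mean ± SD over libraries. Peaks per gene were tested with limma 3.58.1 in R 4.3.3 (lmFit, eBayes with trend, pseudocount 0.5, mean of at least 1 peak, adjusted p under 0.05) over all protein-coding genes; the script was tested on simulated data. Genes whose values are equal in all libraries have their variance raised above 0 by limma. Other values were computed in Python 3.11.15 with numpy 2.4.6 and matplotlib 3.10.9.

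Groups followed the sample titles. The methods speak of biological replicates of each depletion, but the labels tie no library to a culture, so p-values measure the spread between these samples, which may be technical. Peaks hold no read counts, so no counting interval is given. Named genes were the 8 densest, the 5 longest and the 4 longest without an untreated peak, the 3 with most RNase H peaks, those called or nearest to a call, the leading pair of each list and those with printed sequences. Some items that this rule or the marker list takes in are not reported here. Members, lists and tests were chosen with earlier results of these data known.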

Additional observations from a re-analysis of the deposited data

Results flagged for a closer look

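In Sox5, a transcription factor gene of 954 kb, RNase H and untreated libraries differed in opposite directions in 2 groups. The RNase H library labelled siScramble held 4 peaks against 1, 3 and 3 untreated, a difference of 1.67 from the mean. The RNase H library labelled siEXOSC3 held 0 against 1, 1 and 2, a difference of −1.33. The difference between the groups was not tested, and each rests on 1 RNase H library.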

How the results depend on the processing

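Under the alternatives run, 177 values of the comparisons stayed within the spread between libraries, or within 1.5 times for counts. A further 71 moved beyond that, as given below. Scaling the RNase H test turned the members' median from −0.68 to 2.03 and that of all genes from −2.52 to 0.19. Among single genes 346 values kept their side of the threshold, 13 lost it and 10 gained it. Leaving out Gm20388 or the 3 models, equal peak numbers in the tests of genes, and unscaled overlap were alternatives chosen after seeing the data, and the cause of each shift below was not tested.

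The untreated density of 0.435 peaks per 100 kb was 0.293 with peaks up to 1000 bases apart joined, 0.265 at −log10 q of at least 5, 0.306 with equal peak numbers, 0.213 without peaks in other genes, 0.668 in genes of at least 1 Mb, 0.191 without Gm20388 and 0.177 without Gm20388, Fgfr2 and Arfip1. The untreated share of the first decile was 12.9% without peaks in other genes and 14.7% without Gm20388, that of the last 25.0% and 29.2%, and the RNase H share of the first 5.64% at −log10 q of at least 5. Regions in 9 of 9 libraries numbered 47 at 0.5 of the region covered and 32 without Gm20388.

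Genes called for siDDX1 against siScramble (0) numbered 1 without scaling, 12 by kb covered, 6 with equal peak numbers and 0 to 7 with 1 library left out. For siEXOSC3 against siScramble (8) they numbered 0 without scaling, 31 with a pseudocount of 1, 21 with any gene with a peak, 0 by the exact permutation test, 143 by kb covered, 24 with equal numbers and 0 to 23 with 1 library left out. Members lower there (1) numbered 0, 3, 3, 0, 4 and 0 in the same order, 0 at −log10 q of at least 5, and 0 to 3 with 1 library left out. For siEXOSC3 against siDDX1 (0) genes numbered 1 without scaling, 28 with a pseudocount of 1, 6 at a mean of 3 peaks, 23 with any gene, 110 by kb covered, 1 at −log10 q of at least 5, 17 with equal numbers and 0 to 27 with 1 library left out. Members lower there numbered 2 with a pseudocount of 1, 2 with any gene, 2 by kb covered and 0 to 3 with 1 library left out.

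RNase H calls (5614) numbered 1185 when scaled and 2182 at a mean of 3 peaks. Members higher (11) numbered 32 when scaled, 75 with any gene, 4 at −log10 q of at least 5 and 4 to 12 with 1 library left out. The 32 and the 75 are set in part by the filter, as said above. They numbered 0 at a mean of 3, a filter that all 11 fail to pass. Members lower (21) numbered 4 when scaled. Cases without overlap between siRNA groups (21) numbered 3 without scaling.

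Libraries with the same replicate number correlated between −0.28 and 0.27 over 9 pairs, 2 of them over 0.1, so the numbers were not taken to pair them. With the replicate block, 0 genes were called for siDDX1 against siScramble, 11 for siEXOSC3 against siScramble with 2 members lower, and 13 for siEXOSC3 against siDDX1 with 2 members lower, Magi1 and Alk. Peak lists hold no reads, so a gene without a peak may lie just under the calling threshold, and depth could not be weighed.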
